A study of Mus musculus with 8 samples.

Results

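Along 3 stretches of the mouse genome, most tested genes differed in the same direction between A20 B lymphoma lines carrying IgE and control A20 lines. The proximal stretch of chromosome 6 is chr6:31287987-47703050 and its distal stretch is chr6:122527908-126978197, where most genes were higher in the IgE lines. The stretch of chromosome 19 is chr19:39116674-44909954, where most genes were lower in the IgE lines. All positions of genes and probes are those of the array files on build mm9. The members were all array probes placed in these stretches apart from controls, less the probes of 10 gene names (Gapdh, Tpi1, Eno2, Ptpn6, Cd27, Blnk, Pik3ap1, Pgam1, Scd1 and Scd2). This gave 679 of 55681 probes and 454 of 34797 gene names, of which 236 names lay in the proximal stretch of chromosome 6, 118 in its distal stretch and 100 in the chromosome 19 stretch. The bounds of the stretches were chosen by the measured difference between IgE and control lines on these same arrays. For that difference the values and counts below are therefore a description of the members, with no test.

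Expression was measured on 8 one-colour arrays, 2 for each of 4 lines of A20, a mouse cell line of mature B cell type. The control lines were untransfected A20 cells and a stable transfectant carrying membrane IgM. The IgE lines were a pair of stable transfectants carrying membrane IgE, clone 18 and clone 41, so each IgE line stands for 1 clone. The labels name no other allele or agent, and the sources used here do not say whether the IgM transfectant is also a clone. Whether the arrays of a line hold RNA of separate cultures is not stated. The p-values and standard errors therefore cover the spread between the arrays of a line alone, and that spread may be technical. They leave out the spread between the lines of a side. All 8 marker genes of B cells that were looked up were well above background on all 8 arrays, and so were 2 of 3 plasma cell markers, 2 of 6 T cell markers and 3 of 5 myeloid markers. Cd8a, Lyz2 and Cd14 were above background on no array.

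A level is the log2 processed intensity of a probe minus the 75th percentile of its array, so that 0 is that percentile and -4.90 to -4.63 is the lowest level well above background, depending on the array. Each gene is represented by its brightest probe, and it was tested where some line had that probe well above background on each of its arrays. Of the 454 gene names, 212 were tested: 90 in the proximal chromosome 6 stretch, 65 in the distal one and 57 in the chromosome 19 stretch. A gene is called in a comparison at an adjusted p under 0.05 and at least a 2-fold difference. Levels of different probes are not compared with each other, and a difference is always between lines for the same probe.

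Genes that lie side by side in a mammalian chromosome mostly have unrelated functions, and each is read from its own promoter by its own regulators. The stretches here hold housekeeping genes of mitochondria, ribosomes and chromatin beside clusters of near-identical family members, such as olfactory and taste receptors, trypsins, C-type lectins and cytochrome P450 2c enzymes. Membrane IgE and membrane IgM are antigen receptors that B cells display with the CD79 proteins and that signal through kinases of the cytoplasm.

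The probes of a few genes are shown because the values below rest on them. The array files place each probe on mm9 and give its sequence, and they do not say which part of the transcript it matches. Those of Ndufb2 and Ssbp1 in the proximal stretch of chromosome 6, and of Lpcat3 and Emg1 in its distal stretch, span more of the genome than their 60 bases, 1090, 1147, 169 and 129 bases, and are printed whole. They lie at chr6:39548336-39549425 (plus strand), chr6:40426793-40427939 (plus), chr6:124653374-124653542 (plus) and chr6:124655064-124655192 (minus).
Ndufb2: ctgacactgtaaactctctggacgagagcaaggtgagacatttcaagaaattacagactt
Ssbp1: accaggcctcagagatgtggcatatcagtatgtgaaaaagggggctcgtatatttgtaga
Lpcat3: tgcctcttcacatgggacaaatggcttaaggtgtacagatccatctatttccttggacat
Emg1: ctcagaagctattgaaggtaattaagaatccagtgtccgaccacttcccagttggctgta

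Of the other probes the results turn on, the first 30 bases are printed. Gstk1 (chr6:42200381-42200440, plus), Scnn1a (chr6:125294843-125294902, plus) and Spsb2 (chr6:124760573-124760632, plus) are the genes that were called between the IgE clones. Cnot4 (chr6:34995213-34995272, minus), Cops7a (chr6:124908931-124908990, minus), Slit1 (chr19:41674749-41674808, minus) and Hoga1 (chr19:42144788-42144847, plus) had among the largest differences between IgE and control lines.
Gstk1: acaagtgccttttgaaaagccttaaattct
Scnn1a: tgggtagactgaactgtgctcagggatgag
Spsb2: ttaaacaccatggcagcctgggacaaagag
Cnot4: agtgagtggggtacttcataaggcagaatg
Cops7a: ccaatggaaatcctggaaggatttatatct
Slit1: gccatgccctctctcaaagtgccttgcaca
Hoga1: ggcactgcgcttggatttcagcaacaatgg

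Because most tested members of a stretch differed in the same direction, the promoters of the first named genes are shown: the 250 bases before the start, from RefSeq on GRCm38.p6, with motif matches in capitals. The motifs searched, on both strands, were TATAAA, known from core promoters, CCAAT, the site of NF-Y, GGGCGG, the site of Sp1 family factors, and CACGTG, the site of Myc and USF. The Cnot4 window (chr6:35133738-35133987, minus) holds 4 matches of the Sp1 motif, a pair of which overlap, and 1 of the Myc motif, and that of Slc37a3 (chr6:39377708-39377957, minus) holds 1 of the Myc motif. In the distal stretch the Vamp1 window (chr6:125215331-125215580, plus) holds 3 of the NF-Y motif and 1 of the Sp1 motif, and that of Cops7a (chr6:124965513-124965762, minus) holds 1 of the Sp1 motif. The table of promoters does not list Slit1.
Cnot4: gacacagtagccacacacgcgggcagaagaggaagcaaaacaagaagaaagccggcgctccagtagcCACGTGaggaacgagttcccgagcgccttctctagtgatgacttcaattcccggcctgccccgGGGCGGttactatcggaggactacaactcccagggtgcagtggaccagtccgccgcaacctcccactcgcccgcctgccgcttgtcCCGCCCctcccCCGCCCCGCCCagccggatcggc
Slc37a3: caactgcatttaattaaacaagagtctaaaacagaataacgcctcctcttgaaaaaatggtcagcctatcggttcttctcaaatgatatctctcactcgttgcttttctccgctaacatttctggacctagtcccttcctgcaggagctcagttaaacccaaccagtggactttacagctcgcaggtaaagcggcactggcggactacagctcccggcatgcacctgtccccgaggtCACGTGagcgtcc
Vamp1: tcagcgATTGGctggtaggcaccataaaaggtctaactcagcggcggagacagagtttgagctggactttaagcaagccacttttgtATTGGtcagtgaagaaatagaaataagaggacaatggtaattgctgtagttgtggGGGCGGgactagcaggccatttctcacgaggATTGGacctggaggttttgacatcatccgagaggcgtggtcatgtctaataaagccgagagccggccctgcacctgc
Cops7a: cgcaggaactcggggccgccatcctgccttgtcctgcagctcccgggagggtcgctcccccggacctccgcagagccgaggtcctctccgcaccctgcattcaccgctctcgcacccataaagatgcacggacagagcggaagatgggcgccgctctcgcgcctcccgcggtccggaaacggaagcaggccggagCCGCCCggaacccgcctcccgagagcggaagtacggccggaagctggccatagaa

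Promoter windows of 47 tested genes of the proximal chromosome 6 stretch, 39 of the distal one and 45 of the chromosome 19 stretch were found. GGGCGG occurred in 55.3%, 59.0% and 51.1% of these windows, against 55.5% of the 10550 windows found for all genes tested. CCAAT occurred in 25.5%, 30.8% and 35.6%, against 37.1%, and TATAAA in 8.51%, 7.69% and 8.89%, against 7.35%. CACGTG occurred in 6.38%, 5.13% and 4.44%, against 8.27%. Over the 27025 windows in the whole table the shares were 32.9% for GGGCGG, 34.5% for CCAAT, 13.0% for TATAAA and 6.05% for CACGTG. No motif stood in most windows of a stretch other than GGGCGG, whose share was near that of all genes tested. Matches of letters are a description and not sites of a factor.

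The proximal stretch of chromosome 6 spans 16.4 Mb. Of its 90 tested genes, 74 were higher and 16 lower in the IgE lines, with a median difference of 0.59 on the log2 scale (interquartile range 0.16 to 1.04), or 1.5-fold. The median level of the stretch, each gene centred on its mean over the 8 arrays, was -0.32 and -0.36 in untransfected cells and -0.22 and -0.29 in IgM cells. It was 0.35 and 0.34 in clone 18 and 0.24 and 0.26 in clone 41, so that the control and IgE arrays did not overlap. The SD between the arrays of a line was 0.03. Over the 823 tested genes of chromosome 6 outside both stretches the median difference was 0.01, and over all 19973 genes tested it was 0.04.

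**Figure D1:**
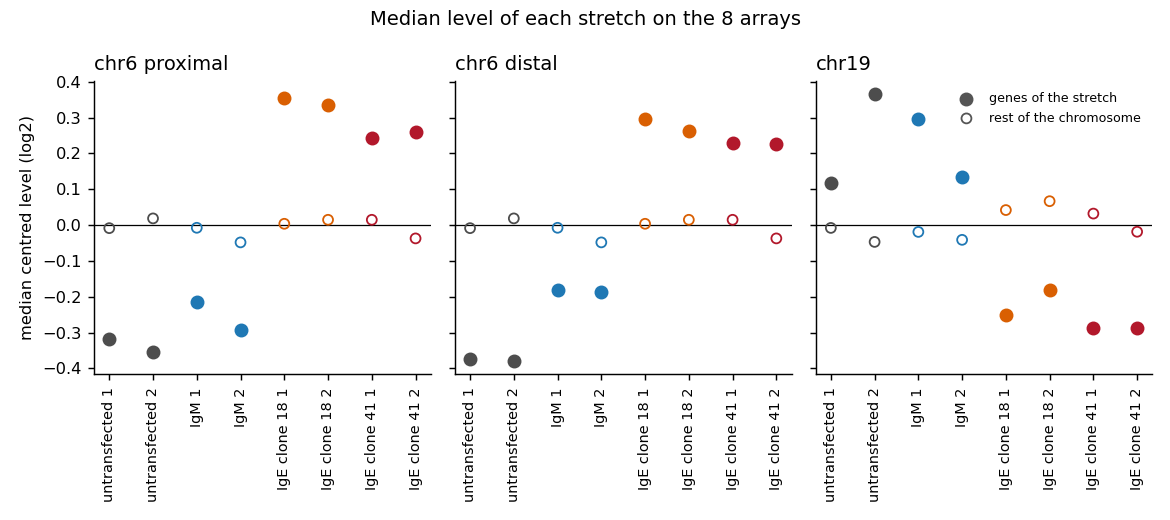
Median level of each stretch on each of the 8 arrays (vertical axis, log2, each gene centred on its mean over the arrays; horizontal axis, the arrays by line), with filled circles for the tested genes of the stretch and open circles for the tested genes of the rest of its chromosome. The filled circles of both chromosome 6 stretches lie below 0 on the 4 control arrays and above 0 on the 4 IgE arrays, those of the chromosome 19 stretch lie the other way, and the open circles stay near 0.

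In the proximal stretch 25 genes were called higher in the IgE lines and 0 lower. Over all genes tested 3.4% were called higher and 5.59% lower, and nothing is read from the members' counts, since the stretch was chosen on this difference. All 4 IgE arrays lay above all 4 control arrays for 49 of the 90 genes (14.4% of all genes tested) and below them for 0 (10.6% of all genes tested). Without the filter, so that members near background on every array entered too, the median of the stretch was 0.12.

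Among genes with a standard symbol that were well above background and unsaturated on all 8 arrays, here called clear, the largest difference was at Cnot4, a ubiquitin ligase of the CCR4-NOT complex that shortens mRNA tails. Its level was 0.34 and 0.41 in untransfected cells, 0.47 and 0.35 in IgM cells, 1.69 and 1.83 in clone 18 and 1.66 and 1.68 in clone 41. The IgE arrays lay apart from the control arrays, which was a condition for naming the gene, with a difference of 1.32 ± 0.11 (SE), or 2.5-fold. Here and below the SE covers the spread between arrays of a line, not that between lines. D630045J12Rik, a transcript without such a symbol, differed by 1.94 ± 0.15. Slc37a3, a transporter of the sugar-phosphate exchanger family, had levels of -1.53, -1.61, -1.44 and -1.40 on the control arrays and -0.54, -0.07, -0.11 and -0.05 on the IgE arrays. Its difference was 1.30 ± 0.14, and 1 array of clone 18 lay lower than the other 3 IgE arrays without reaching the controls.

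Some mitochondrial genes had differences among the largest of the proximal stretch. Ndufb2, a subunit of respiratory complex I, had levels of 4.82 and 4.33 in untransfected cells, 4.52 and 4.81 in IgM cells, 5.70 and 6.05 in clone 18 and 5.83 and 5.81 in clone 41 (difference 1.23 ± 0.16). Ssbp1, the single-stranded DNA binding protein of mitochondria, went from 4.27, 4.37, 4.07 and 3.98 on the control arrays to 5.32, 5.42, 5.29 and 5.27 on the IgE arrays (difference 1.15 ± 0.11). For both genes the groups did not overlap, as was required for naming them, and the clones lay close together. Of 6 names listed as mitochondrial in the stretch 5 were tested and 4 called, with a median difference of 1.15. The list is not complete: the mitochondrial kinases Agk (0.91) and Adck2 (0.49) were listed with the kinases and were not called. The median was 0.59 over the whole stretch and 0.87 over its 45 brighter members, beside 0.04 over all genes tested. Of the called genes, Gstk1 passed the filter and was called through clone 18 alone. The other 4 tested genes of the list were higher in both IgE clones. Mrps33, a protein of the mitochondrial ribosome, differed by 1.03 ± 0.11, and Chchd3, which shapes the inner membrane, by 0.86 ± 0.13.

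The other genes named by the size of their difference have unrelated roles. Mtpn encodes myotrophin, which regulates actin capping, and had levels of 0.64, 0.53, 0.39 and 0.20 on the control arrays and 1.59, 1.77, 1.69 and 1.46 on the IgE arrays (difference 1.19 ± 0.12). Ubn2, part of a histone chaperone complex, differed by 1.09 ± 0.14, from 2.96 ± 0.21 (SD over the 4 arrays of a side) to 4.05 ± 0.06. Dennd2a, an exchange factor for Rab GTPases, differed by 1.06 ± 0.13 and Wdr91, a regulator of endosomes, by 1.04 ± 0.12. For each of these genes the 4 IgE arrays lay above the 4 control arrays, which was a condition for naming them.

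**Figure D2:**
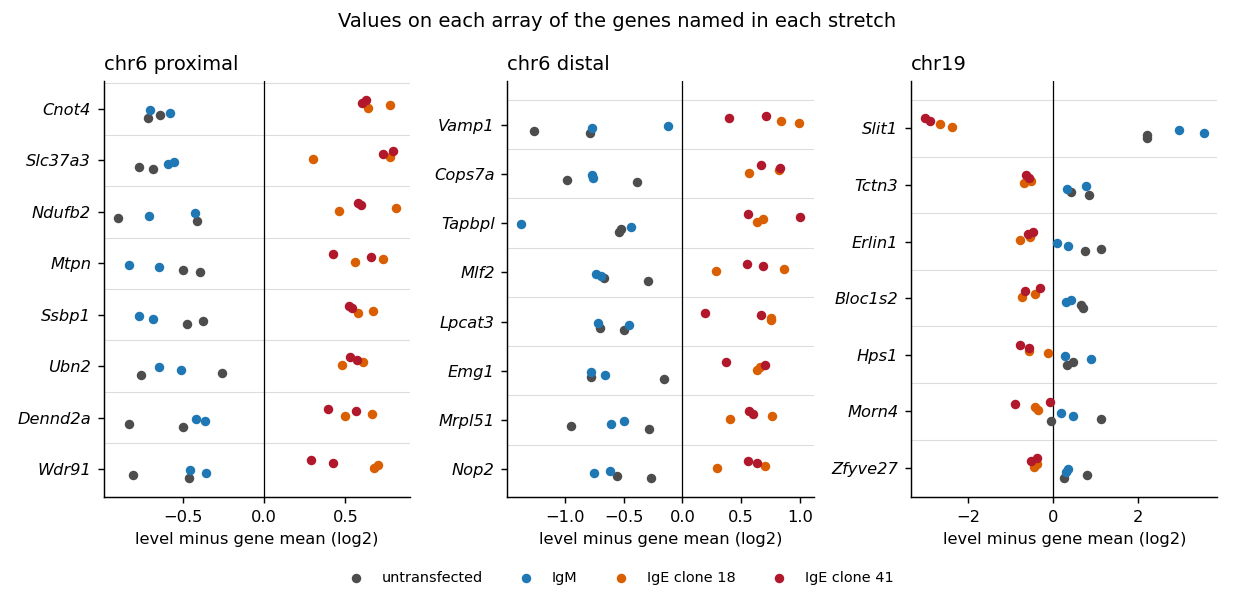
Level of each gene named by the size of its difference minus the gene's mean over the arrays (horizontal axis, log2; 1 point per array, coloured by line; genes on the vertical axis). In every row the orange and red points of the IgE clones lie to 1 side of the grey and blue points of the control lines, to the right in the chromosome 6 stretches and to the left in the chromosome 19 stretch. Genes were named only if the groups did not overlap, so this separation was fixed by their choice.

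By function, the lists of genes in the proximal stretch differed mostly in the direction of its median. Calls counted in lists, in every stretch, follow the choice of the stretch, beside 3.4% called higher and 5.59% lower over all genes tested. Of 8 genes of chromatin and transcription 6 were tested and all were higher in the IgE lines, with a median of 0.92 and 2 called. Ezh2, the methyltransferase of histone H3 lysine 27 in the Polycomb repressive complex, had levels of 3.78, 3.14, 3.02 and 3.40 on the control arrays and 3.77, 3.94, 4.21 and 4.20 on the IgE arrays, so that the lowest IgE array lay just below the highest control array. Of 8 kinases and receptor tyrosine kinases 5 were tested, all were higher (median 0.58) and 0 were called, since none reached 2-fold. Braf, the kinase that passes signals from Ras to MEK, went from 1.25, 1.46, 1.19 and 1.14 to 2.17, 2.29, 2.02 and 2.26 (difference 0.92 ± 0.12), and Hipk2, a nuclear kinase, differed by 0.58 ± 0.13. All 6 genes listed under protein turnover and cell death were tested and higher (median 0.91, 2 called). Casp2, an initiator caspase (0.96 ± 0.21), and Cul1, the scaffold of SCF ubiquitin ligases (0.61 ± 0.12), were not called. The 2 called were Nup205 (1.02) and Wdr91 (1.04), although neither is a gene of turnover or cell death.

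Sensory receptors and trypsins of the proximal stretch were mostly at background. Of their 27 names 1 was tested, and the trypsins are near-identical copies that the probes may not tell apart. Of 5 aldo-keto reductases, which are also close copies, 3 were tested, with a median of 0.25. Akr1b3, aldose reductase, was at 4.89 ± 0.23 on the control arrays and 5.79 ± 0.07 on the IgE arrays. Of 4 antiviral and RNA binding genes 2 were tested (median 0.44), and of 13 genes of cytoskeleton, adhesion and trafficking 8 were tested, 6 higher and 2 lower, with 3 called.

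Some members went against the stretch. Among clear genes with a symbol, the 3 largest differences in the opposite direction were at Tmem140 (-0.42 ± 0.95), whose levels scattered from -2.75 to 1.26 on the control arrays alone and whose difference was 0.59 without the second untransfected array, at Mkln1 (-0.21 ± 0.13), which encodes muskelin, and at Prss37 (-0.14 ± 0.16), a protease-like gene of the testis. For none of the 3 did the groups separate. Mkln1 lies 3rd from the start of the stretch.

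The distal stretch of chromosome 6 spans 4.45 Mb. Of its 65 tested genes 49 were higher and 16 lower in the IgE lines, with a median difference of 0.47 (interquartile range 0.01 to 1.01), or 1.39-fold. The median centred level was -0.37 and -0.38 in untransfected cells, -0.18 and -0.19 in IgM cells, 0.29 and 0.26 in clone 18, and 0.23 and 0.23 in clone 41. The SD between arrays of a line was 0.01. The IgM arrays lay between the untransfected and the IgE arrays, nearer to the former. A total of 16 genes were called higher and 2 lower, against 3.4% and 5.59% of all genes tested. All 4 IgE arrays lay above the controls for 26 genes (14.4% of all genes tested) and below them for 2 (10.6% of all genes tested). These counts again describe the choice of the stretch. Without the filter on dim probes the median of the stretch was 0.15.

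Vamp1, a synaptobrevin of vesicle fusion, had levels of -1.08, -1.55, -1.06 and -0.41 on the control arrays and 0.71, 0.55, 0.11 and 0.42 on the IgE arrays (difference 1.47 ± 0.20, or 2.77-fold). Cops7a, a subunit of the COP9 signalosome that removes NEDD8 from cullins, had levels of 4.43, 3.84, 4.06 and 4.05 and of 5.39, 5.64, 5.65 and 5.49 (difference 1.45 ± 0.16). Both genes separated the groups without overlap, which was a condition for naming them. Tapbpl, a tapasin-like protein of MHC class I peptide loading, was at -0.51, -0.49, -0.41 and -1.34 on the control arrays and at 0.66, 0.71, 1.03 and 0.58 on the IgE arrays, a difference of 1.44 ± 0.22. The array with the lowest Tapbpl level was the second of IgM cells.

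Genes of ribosome production had large differences as well. Nop2, an RNA methyltransferase of the nucleolus, had levels of 5.74 and 5.46 in untransfected cells, 5.26 and 5.40 in IgM cells, 6.31 and 6.71 in clone 18 and 6.65 and 6.57 in clone 41 (difference 1.10 ± 0.14). Emg1, another methyltransferase of ribosome assembly, went from 3.50, 2.89, 3.01 and 2.89 to 4.30, 4.32, 4.36 and 4.03 (difference 1.18 ± 0.17). Mrpl51, of the mitochondrial ribosome, differed by 1.17 ± 0.18, and Phb2, a prohibitin of the inner mitochondrial membrane, by 1.02 ± 0.23. All 6 genes listed under ribosome biogenesis and mitochondria were tested, with a median of 1.06, and 4 of them were called higher. Ndufa9, a complex I subunit in the same list, was at 4.99 ± 0.14 and 4.97 ± 0.15 (difference -0.02 ± 0.13), and the sixth entry, the kinase Dyrk4, was called lower and is described below.

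Lpcat3, which attaches fatty acids to lysophospholipids, differed by 1.18 ± 0.15 (1.62 ± 0.13 on the control arrays, 2.80 ± 0.27 on the IgE arrays), and Mlf2 by 1.19 ± 0.17. They belong to a list of metabolism and signalling in which 7 of 9 genes were tested, all 7 were higher (median 1.18) and 4 were called, Spsb2 among them through clone 18 alone. All 7 genes of chromatin and the chromosome were tested and higher, with a median of 0.64, and 1 of them, Ncapd2, was called. Ncapd2, a subunit of condensin, was at 4.54 ± 0.03 and 5.54 ± 0.09 (difference 1.01 ± 0.11). Chd4, the helicase of the NuRD complex, had levels of 5.68, 5.56, 5.59 and 5.65 against 6.23, 6.38, 6.24 and 6.16 (difference 0.64 ± 0.11), a smaller step that still left the groups apart.

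Lymphocyte and immune genes of the distal stretch were mixed. Of 6 lymphocyte surface genes 5 were tested, with a median of 0.31 and 2 called higher, Tapbpl and Lpar5. Cd4, the coreceptor of helper T cells, was at 1.56 ± 0.07 on the control arrays and 1.87 ± 0.20 on the IgE arrays (difference 0.31 ± 0.14). None of 9 C-type lectins and neither of the 2 TNF receptor names passed the filter. Of 6 complement and coagulation genes 3 were tested (median 0.11), and among them C1ra and C1rb are near-identical copies. Of 7 genes of membrane transport and channels 5 were tested (median 0.93) and 2 called, Vamp1, which is not a transporter, and Scnn1a, which passed the filter and was called through clone 18 alone. Slc2a3, a glucose transporter, was at 1.20 ± 0.10 and 2.13 ± 0.07.

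Among the genes of editing and pluripotency, where 5 of 5 were tested with a median of 0.15, Apobec1 was lower in the IgE lines. Apobec1, the cytidine deaminase that edits apolipoprotein B mRNA, had levels of 5.02, 5.57, 5.41 and 5.67 on the control arrays and 5.13, 5.05, 4.72 and 4.94 on the IgE arrays (difference -0.46 ± 0.16), with 1 untransfected array among the IgE values. It is the first gene of the stretch. Kcna6, a potassium channel, differed by -0.47 ± 0.51, a value that rests on 1 array of clone 41 at -3.08 while the other 7 arrays lay between -0.70 and -0.19. Without that array it was 0.16. C1rb differed by -0.10 ± 0.13, or 0.11 with another background correction (normexp).

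The chromosome 19 stretch spans 5.79 Mb. Of its 57 tested genes 42 were lower and 15 higher in the IgE lines, with a median difference of -0.49 (interquartile range -0.88 to 0.03), or 1.40-fold lower. The median centred level was 0.12 and 0.36 in untransfected cells, 0.30 and 0.14 in IgM cells, -0.25 and -0.18 in clone 18 and -0.29 and -0.29 in clone 41. The SD between arrays of a line was 0.11, wider than in either chromosome 6 stretch, and the groups did not overlap. Over the 578 tested genes of the rest of chromosome 19 the median difference was 0.07. Of the members 10 were called lower and 0 higher, against 5.59% and 3.4% of all genes tested. All 4 IgE arrays lay below the controls for 25 genes (10.6% of all genes tested) and above them for 1 (14.4% of all genes tested). These counts too describe the choice of the stretch. Without the filter on dim probes the median was -0.25.

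Slit1, a secreted guidance cue that binds Robo receptors, had by far the largest difference of any member that was clear on all arrays. Its level was 1.80 and 1.80 in untransfected cells, 3.14 and 2.57 in IgM cells, -2.80 and -3.09 in clone 18 and -3.32 and -3.44 in clone 41. The difference was -5.49 ± 0.16, or 44.9-fold lower in the IgE lines. The IgE arrays lay more than 4 log2 units below the control arrays.

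Most of the other named genes of the chromosome 19 stretch act in membranes and organelles. Erlin1, a lipid raft protein of the endoplasmic reticulum, had levels of 4.38, 4.76, 3.97 and 3.71 on the control arrays and 2.83, 3.07, 3.03 and 3.15 on the IgE arrays (difference -1.19 ± 0.14). Bloc1s2 and Hps1, which take part in the making of lysosome-related organelles, differed by -1.05 ± 0.14 and -1.0 ± 0.19. Tctn3, of the ciliary transition zone, differed by -1.20 ± 0.16. Zfyve27, an endoplasmic reticulum protein of neurite outgrowth, was at 3.61 ± 0.25 and 2.75 ± 0.06, and Morn4 differed by -0.88 ± 0.30. In each of these genes the 4 IgE arrays lay below the 4 control arrays, which was a condition for naming them. Of 15 genes listed under membrane trafficking and lipid 12 were tested, 9 lower and 3 higher, with a median of -0.71 and 4 called lower. The list holds Scd3 and Scd4, close relatives of desaturases whose probes may cross-hybridise.

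All 7 genes of DNA repair and RNA processing in the stretch were tested and lower, with a median of -0.67 and 0 called. Exosc1, a subunit of the RNA exosome, was at 1.91 ± 0.18 and 1.24 ± 0.17, and Mms19, which delivers iron-sulphur clusters to DNA enzymes, at 0.31 ± 0.17 and -0.10 ± 0.03. Morn4 is the list's lowest entry although it is not a gene of either process. All 6 genes listed as mitochondrial were tested (median -0.56), 5 lower and 1 called, Hoga1. Cox15, needed for heme A of cytochrome oxidase, was at 1.43 ± 0.27 and 0.69 ± 0.18. Ndufb8, the member of this list that was higher (0.34), was saturated on all 8 arrays, so its difference is not measured.

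Chuk, the IKK alpha kinase of the noncanonical NF-kB pathway, had levels of 4.35, 5.12, 4.37 and 4.26 on the control arrays and 3.54, 3.88, 3.79 and 4.0 on the IgE arrays (difference -0.72 ± 0.20). Hif1an, the hydroxylase that holds HIF-1 alpha inactive in oxygen, had levels of 0.48, 0.33, 0.47 and 0.04 and of -0.31, -0.28, -0.23 and -0.35 (difference -0.62 ± 0.14). Neither gene's groups overlapped, and neither reached 2-fold. Of 6 genes listed under lymphocyte and NF-kB 3 were tested (median -0.64). That median is the value of Tm9sf3, which is a gene of neither kind. All 4 genes listed under oxygen sensing and cyclin were lower (median -0.51), although Avpi1 and Cutc are neither. Of 13 names of the Cyp2c family 3 were tested (median 0.03), and these are near-identical copies. Of 4 Wnt pathway genes 2 were tested, Frat1 and Frat2, with a median of -0.04, and of 3 developmental regulators 2, Slit1 and Pax2.

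Members of the chromosome 19 stretch that were higher in the IgE lines were few. Ubtd1, a ubiquitin-like domain protein, had levels of -3.25, -1.90, -3.17 and -2.66 and of -1.36, -1.83, -2.10 and -1.85 (difference 0.96 ± 0.31), with the second untransfected array inside the IgE range. Dntt, the terminal transferase that adds N nucleotides during V(D)J joining, differed by 0.35 ± 0.27 at levels between -4.40 and -3.35, not far above background. Golga7b differed by 0.23 ± 0.12.

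The same direction was seen for each IgE clone against each control line. These 4 comparisons share lines and are components of the difference that chose the stretches. In the proximal chromosome 6 stretch the median was 0.65 for clone 18 against untransfected cells, 0.54 for clone 18 against IgM cells, 0.56 for clone 41 against untransfected cells and 0.47 for clone 41 against IgM cells. In the distal stretch the medians, in the same order, were 0.54, 0.35, 0.42 and 0.31. In the chromosome 19 stretch they were -0.59, -0.52, -0.55 and -0.50. Over all genes tested they were 0.07, 0.06, 0.04 and 0.03.

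**Figure D3:**
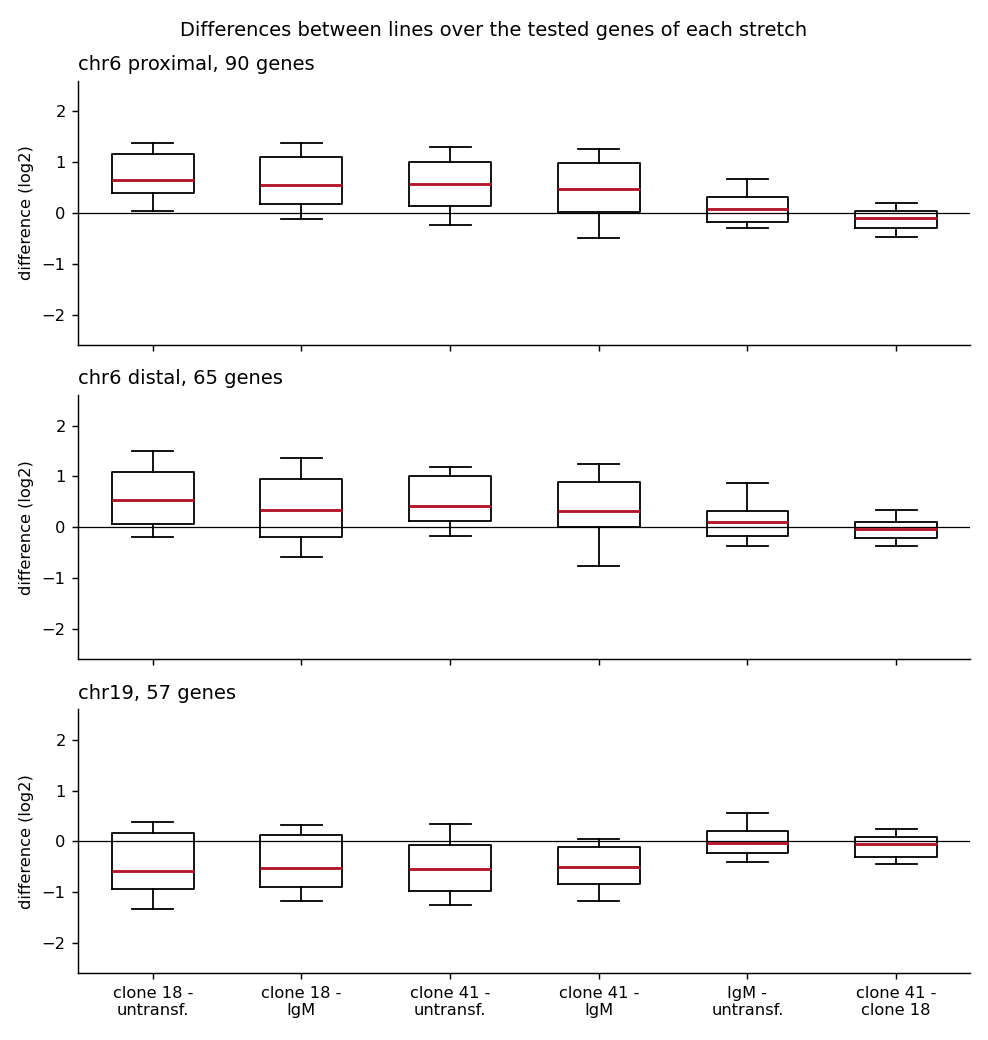
Differences between lines over the tested genes of each stretch (vertical axis, log2; horizontal axis, the pair of lines; box, interquartile range; red line, median; whiskers, 10th and 90th percentiles). The medians of the 4 pairs of an IgE clone and a control line lie between 0.31 and 0.65 in the chromosome 6 stretches and between -0.59 and -0.50 in the chromosome 19 stretch, while those of IgM against untransfected cells and of clone 41 against clone 18 lie between -0.09 and 0.10.

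A pair of comparisons did not enter the choice of the stretches and could be tested. Between IgM and untransfected cells 1 of 90 genes of the proximal chromosome 6 stretch was called by limma, 2 of 65 of the distal stretch and 0 of 57 of the chromosome 19 stretch, against 2.03% of all genes tested. At an unadjusted p under 0.05 the counts were 7, 10 and 10, and 2902 over all 19973 genes. The median differences of the stretches were 0.09, 0.10 and -0.03, beside 0.01 over all genes. Between clone 41 and clone 18 the calls were 1, 2 and 0, against 0.355% of all genes tested. At an unadjusted p under 0.05 they were 6, 6 and 2, with 1166 over all genes. Gstk1 and Scnn1a, among those called, were above background in clone 18 alone and entered the test through it. Among genes well above background and unsaturated on all 8 arrays, 0 members were called between the clones. Over all 16349 such genes 9 were called higher and 8 lower. The counts of the distal stretch changed when single arrays were left out, also arrays of lines outside the comparison. Without either array of clone 18 the distal calls between the control lines, Clstn3 and Akap3, kept their differences of 1.83 and 2.59. Only their adjusted p moved, since arrays of clone 18 enter that comparison through the shared estimate of spread alone. Between the clones the distal stretch had 0 calls without the first array of clone 41 and 1 without its second or without either array of clone 18. The medians were -0.09, -0.04 and -0.05, beside -0.01 over all genes.

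Gstk1, a glutathione transferase of mitochondria and peroxisomes, had the smallest adjusted p of the members called between the IgE clones. Its level was -6.81 and -6.77 in untransfected cells, -6.84 and -7.02 in IgM cells, -1.14 and -0.74 in clone 18 and -6.80 and -6.83 in clone 41. It was well above background on the arrays of clone 18 alone. Clone 41 minus clone 18 was -5.88 ± 0.19 (limma adjusted p = 5.72e-05), which stands for a level at least 13.2-fold higher in clone 18, since the other side is below background. With normexp the difference was -2.44, smaller than this bound. The gene was called under all 19 alternative settings that gave a value, with adjusted p from 5.72e-05 to 0.0199. It is represented by 1 probe on the array.

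The epithelial sodium channel subunit Scnn1a showed the same pattern at lower levels. They were -6.91 and -7.11 in untransfected cells, -6.95 and -7.13 in IgM cells, -4.49 and -3.90 in clone 18 and -6.87 and -6.90 in clone 41. Clone 41 minus clone 18 was -2.69 ± 0.23 (limma adjusted p = 0.00675), or at least 1.38-fold higher in clone 18. The call was lost without the first array of clone 41 (adjusted p = 0.0656) or without the second (0.0644), and the adjusted p ran from 0.00648 to 0.384 over the alternatives. Spsb2, an adaptor of a ubiquitin ligase that targets inducible nitric oxide synthase, was at -4.65, -4.21, -4.39 and -5.00 on the control arrays, at -2.11 and -2.17 in clone 18 and at -4.64 and -4.19 in clone 41. Its difference between clones was -2.28 ± 0.28 (limma adjusted p = 0.0354), and the call was lost in 9 of 19 alternatives, which gave adjusted p from 0.0326 to 0.291. Among them were the fits without the first (0.291) or second (0.2203) array of clone 18 and without the first (0.187) or second (0.109) array of clone 41. In clone 41 both genes lay close to the control arrays, while the median of their stretch was higher there.

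Between the control lines, Clstn3, a calsyntenin, had levels of -0.40 and -0.37 in untransfected cells and 1.11 and 1.79 in IgM cells. It rose by 1.83 ± 0.31 in IgM cells (limma adjusted p = 0.0374), and was at 1.11 and 1.12 in clone 18 and -0.36 and 0.35 in clone 41. Akap3, an anchor of protein kinase A in sperm, was at -7.07 and -5.53 in untransfected cells, -3.62 and -3.80 in IgM cells and between -7.07 and -6.85 on the IgE arrays. It rose by 2.59 ± 0.45 in IgM cells (limma adjusted p = 0.0429), a level at least 2.17-fold higher than in untransfected cells. Akap3 was above background in IgM cells alone and entered the test through that line. Its rise was 0.67 with normexp and 0.40 in the authors' log2 table, smaller than this bound. The Clstn3 call was lost in 8 of 20 alternatives (limma adjusted p from 0.0151 to 0.144), among them the fits without the first (0.0617) or second (0.0733) untransfected array, without the second IgM array (0.125) and without either array of clone 18 (0.1001). The Akap3 call was lost in 12 of 19 alternatives (0.00211 to 0.528), among them the fits without the first (0.188) or second (0.126) IgM array and without either array of clone 18 (0.109) or of clone 41 (0.0866). The call in the proximal stretch was a transcript named by its coordinates alone, near 35.2 Mb, which was higher in IgM cells by 1.28 ± 0.20 (limma adjusted p = 0.0276) and was lost in 8 of 20 alternatives (0.0171 to 0.109). The other 4 probes of this transcript did not show it: IgM minus untransfected was 0.0055, 0.27, -0.24 and -0.08 on them. The settings that lost the call include the fits without the second array of untransfected cells (0.0549) or of IgM cells (0.109), and without either array of clone 18 (0.0754) or of clone 41 (0.0627).

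A few members differed between IgE and control lines by several log2 units, far more than their neighbours. Those that follow, other than Lpar5 and Hoga1, were chosen after their values were seen. Zyx encodes zyxin, a protein of focal adhesions, and had levels of -5.17, -4.52, -4.46 and -3.82 on the control arrays and -1.20, -0.60, 0.28 and -0.04 on the IgE arrays (difference 4.11 ± 0.24), with 3 of 4 control arrays above background. Dyrk4, a dual-specificity kinase in the distal chromosome 6 stretch, went the other way, from 0.57, 1.29, 1.10 and 1.04 to -5.54, -5.43, -5.33 and -2.97. Only 1 of the 4 IgE arrays was above background, so the size of its difference is not measured. The 12 genes tested between 126 and 127 Mb, Dyrk4 included, had a median difference of 0.01.

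Lpar5, a receptor for lysophosphatidic acid, was not well above background on any control array (-5.57, -5.43, -4.96 and -5.06) and was at -2.89, -2.74, -2.61 and -3.12 on the IgE arrays, at least 3.95-fold higher. Hoga1, a mitochondrial aldolase of hydroxyproline breakdown in the chromosome 19 stretch, was at -2.08, -1.17, -2.48 and -2.09 on the control arrays and at -7.08, -6.85, -6.86 and -5.88 on the IgE arrays, at least 6.71-fold lower. With normexp the log2 differences were 1.02 for Lpar5 and -1.43 for Hoga1. In the authors' log2 table they were 1.20 and -2.14. All were smaller than these bounds, which hold for the main setting. Plxna4, a plexin receptor, was at -2.74, -6.96, -4.05 and -2.85 on the control arrays and above background on no IgE array (-6.90 to -6.49), so that the controls themselves disagreed. Cd9, a tetraspanin, was at -4.47 and -4.77 in clone 18, near the background limit, and at -0.96 and -0.82 in clone 41. Its control arrays ran from -3.25 to 0.25, and it was not called between the clones. Dppa3, a gene of germ cells and early embryos, was above background mainly in IgM cells, at -4.31 and -1.32, with every other array between -6.88 and -6.72.

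**Figure D4:**
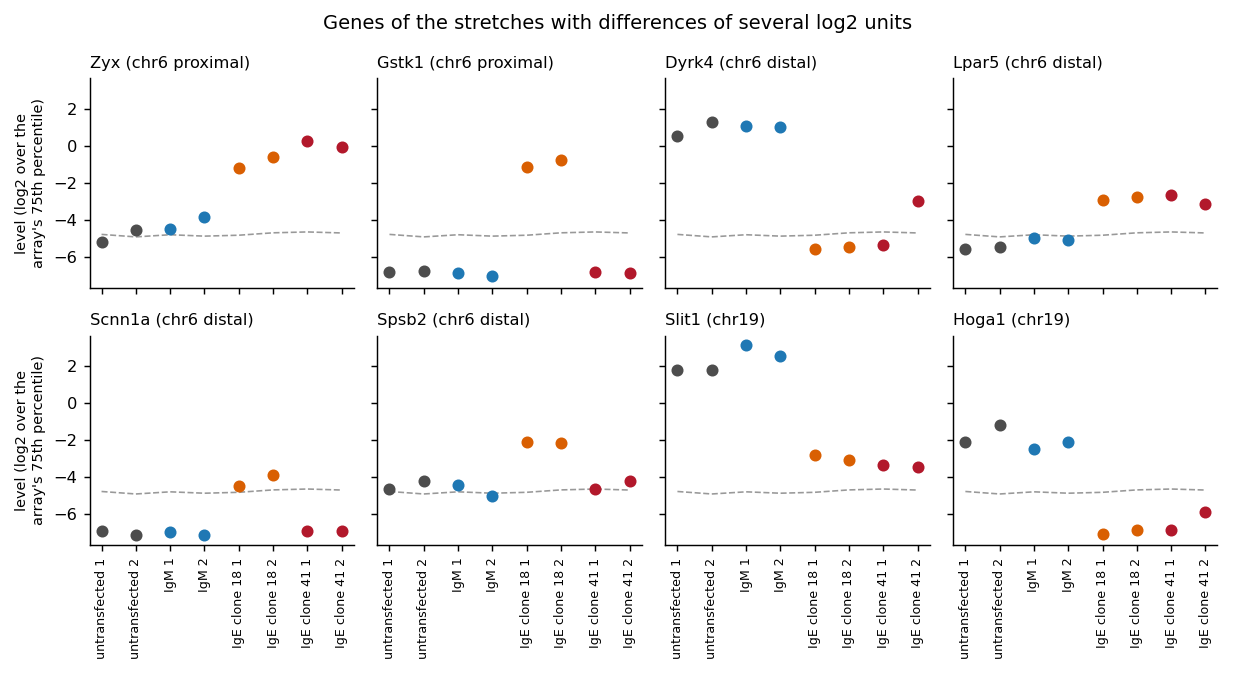
Level of 8 members on each array (vertical axis, log2 over the array's 75th percentile; horizontal axis, the arrays by line; dashed line, the lowest level well above background on that array). Gstk1 and Scnn1a lie above the dashed line in clone 18 alone, and Dyrk4, Slit1 and Hoga1 are high on the 4 control arrays and low on the IgE arrays.

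Differences were not spread evenly along the stretches. In windows of 1 Mb, the median of the proximal chromosome 6 stretch was 0.87 from 34 Mb (10 genes), 0.90 from 35 Mb (6 genes), 0.92 from 39 Mb (15 genes) and 0.91 from 40 Mb (7 genes). It was 0.14 from 41 Mb (8 genes), and no gene was tested between 44 and 46 Mb. In the distal stretch the high values were narrow: -0.17 from 122 Mb (23 genes, 15 of them members), 0.83 from 124 Mb (21 genes), 0.82 from 125 Mb (16 genes) and 0.01 from 126 Mb (12 genes). In the chromosome 19 stretch the median was 0.00 from 39 Mb (4 genes), -0.85 from 40 Mb (10 genes), -0.41 from 42 Mb (16 genes) and -0.62 from 44 Mb (13 genes).

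**Figure D5:**
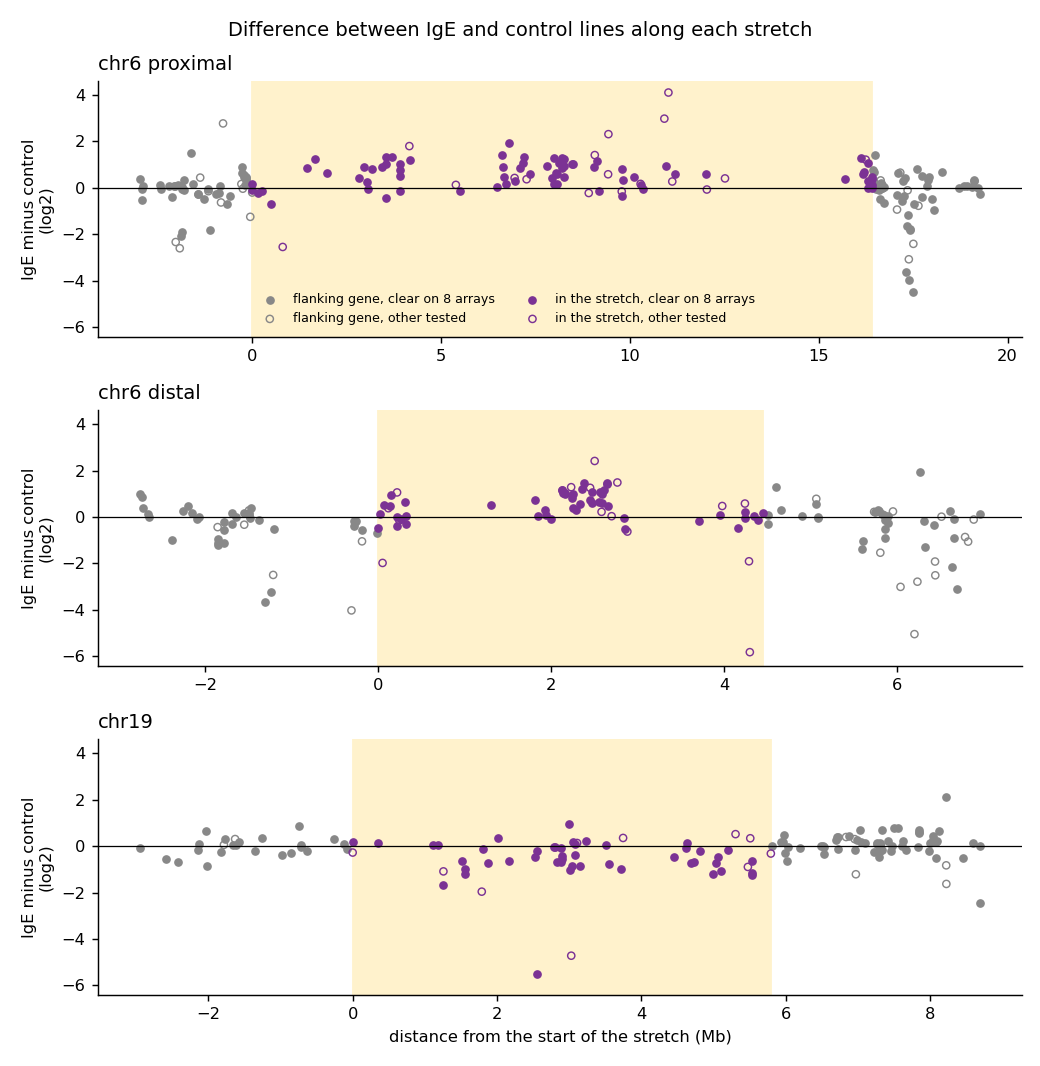
Difference between IgE and control lines of each tested gene (vertical axis, log2) by its distance from the start of the stretch (horizontal axis, Mb), in the stretch (purple, shaded) and in its flanks (grey), with filled points for genes well above background and unsaturated on all 8 arrays. In the distal chromosome 6 panel the purple points lie above 0 mainly about 2 to 3 Mb from the start, and in the chromosome 19 panel those within the first 1 Mb lie near 0. As3mt (-7.36), in the flank after the chromosome 19 stretch, lies below the axis and is not drawn.

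The values at the ends of the stretches were mixed. Genes past 0.5 in the direction of the stretch, among those well above background and unsaturated on all arrays, ran from Chchd3 at 32.7 Mb to 47.6 Mb in the proximal chromosome 6 stretch, from 122.6 Mb to Tapbpl at 125.2 Mb in the distal one, and up to 44.7 Mb on chromosome 19. These runs were drawn after the values were seen. Within them the medians were 0.79 (62 genes), 0.64 (37 genes) and -0.62 (43 genes). In the remainder of each stretch they were 0.00 (11 genes), -0.02 (13 genes) and 0.08 (4 genes). The way the runs were drawn left no such gene past 0.5 there, so nothing is read from these low medians. Beyond the distal run Scnn1a, above background in clone 18 alone, differed by 1.49. Just inside the end of the distal stretch lay Rad51ap1, D6Wsu163e and Fgf6, at 0.04, -0.14 and 0.19. Just outside it lay Fgf23, 9630033F20Rik and a transcript named by coordinates, at 0.09, -0.28 and 1.28. The first 3 genes inside its start, Apobec1, Gdf3 and Dppa3, were at -0.46, 0.15 and -1.98. Inside the end of the chromosome 19 stretch lay a pair of transcripts named by coordinates, at -1.17 and -1.24, and then Pax2, at -0.32. The last 3 inside the end of the proximal stretch were at 0.46, 0.12 and 0.40, and the first 3 inside its start at 0.17, -0.10 and -0.21.

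Outside the ends, the nearest 20 tested genes had medians of 0.10 and 0.11 before and after the proximal chromosome 6 stretch, -0.27 and 0.08 around the distal one, and 0.05 and 0.02 around the chromosome 19 stretch. Before the proximal stretch the interquartile range was -0.29 to 0.46, so the flanking genes were mixed. The 3 just outside its start were at 0.45, -1.24 and -0.20. The 3 just outside its end, Pdia4 last, were at 0.26, 0.76 and 0.67. Around the chromosome 19 stretch Hells, outside the start, differed by -0.12, Cyp2c55 inside it by -0.28 and Mrpl43 outside the end by 0.16. Between the stretches of chromosome 6 the 528 tested genes had a median of -0.00, with 263 higher and 265 lower.

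The size of the difference varied with the level and kind of the probe. Among the dimmer members of the proximal stretch the median was 0.32 (45 genes) and among the brighter 0.87 (45 genes). The corresponding medians were 0.21 (32 genes) and 0.63 (33 genes) in the distal stretch, and -0.17 (28 genes) and -0.62 (29 genes) in the chromosome 19 stretch. Genes with a symbol in the reference table had medians of 0.80 (52 genes), 0.61 (50 genes) and -0.49 (48 genes). Transcripts named by coordinates alone had 0.17 (20 genes) and 0.12 (8 genes) on chromosome 6, and -1.17 (3 genes) on chromosome 19. Genes on both strands took part: the medians of the plus and minus strands were 0.51 and 0.60, 0.57 and 0.22, and -0.28 and -0.63.

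Other probes of the same genes mostly had the same sign. Among other probes that were clear on all arrays, 31 of 39 in the proximal chromosome 6 stretch, 12 of 13 in the distal one and 16 of 17 in the chromosome 19 stretch shared the sign of the brightest probe, with median gaps in size of 0.28, 0.15 and 0.15. The other 3 probes of Ssbp1 differed by 1.42, 1.44 and 1.82, the other probe of Ndufb2 by 1.41 and that of Cops7a by 1.40. The second probes of Cnot4 (0.85) and Vamp1 (0.52) gave smaller values, and so did those of Hps1 (-0.30), Zfyve27 (-0.34) and Morn4 (-0.49) on chromosome 19. These probes share the RNA and array of the first and are not replicates.

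No probe passed the filter for 146 gene names of the proximal chromosome 6 stretch, 53 of the distal one and 43 of the chromosome 19 stretch, which were therefore not tested. Of the 361 probes in the proximal chromosome 6 stretch 148 were above background on no array, and the same held for 66 of 176 in the distal stretch and 46 of 142 in the chromosome 19 stretch. The untested names include olfactory and taste receptors, Cntnap2, Ptn and Podxl in the proximal stretch, vomeronasal receptors, Ltbr, Tnfrsf1a, Vwf, Lag3 and Cd163 in the distal one, and most Cyp2c genes, Entpd1, Abcc2 and Wnt8b on chromosome 19. All medians and counts above are of the members that passed, and a member above background in 1 line alone passed only through that line.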

How the data were processed

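RNA of cells grown in RPMI medium, 1 µg per sample, was labelled with Cy3 and measured on 8 Agilent mouse arrays (design 028005), per the labels' protocols. Per the file headers, the authors read the slide with Agilent Feature Extraction 10.7.3.1, which gave a background-subtracted intensity per spot that was not normalized between arrays, and placed the probes on mm9. The authors also deposited a log2 table of the series, and its normalization is not stated. It was used as an alternative.

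The log2 intensity was scaled by each array's 75th percentile, which lay between 474 and 664 intensity units. Control spots and outlier flags were left out. Between 49.7% and 58.9% of the spots of an array were well above background. A probe was kept if in some line each array had it well above background, and a gene name was represented by its brightest probe. All 19973 genes were fitted together, each line having its own mean, with limma 3.58.1 in R 4.3.3 (4 residual and 2.66 prior degrees of freedom), two-sided, with Benjamini-Hochberg adjustment over all of them. The fit was tested on simulated data. A difference is followed by its standard error from this fit, or a level by its SD over the 4 arrays of a side. The standard error holds the spread between arrays of a line and not that between lines. A fold printed as "at least" sets the mean of the brighter side against the lowest signal well above background on each array of the dimmer side. It holds for the main setting, and other settings gave smaller differences for some genes. With 8 arrays, their number limits the precision.

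The members, the gene lists and the tests were chosen with earlier results of these data known. Genes were named by a rule: per stretch, the 8 largest differences in its direction without overlap and the 3 largest against it among genes with a symbol that were clear on all arrays, up to 4 bounds, the calls of the untouched comparisons, the 3 genes inside and outside each end, and up to 4 examples per list. Some results are not reported here. Further genes are said to be chosen after their values were seen, and the examples of untested names were picked by hand. Replicate numbers do not pair the samples: same-numbered arrays had correlations of deviations of -0.02 to 0.32 between lines. All arrays lay on 1 slide, and each line filled a slide column, so the effect of a slide column cannot be told apart from that of a line. The alternatives covered scaling, background correction, filters, the choice of probe, the authors' table, a replicate block, other priors, the call rule and leaving out each array. Promoters came from RefSeq GRCm38.p6 and were matched by symbol.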

Additional observations from a re-analysis of the deposited data

Results flagged for a closer look

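Of 84 sets of 4 arrays tested for a sample apart from the others, 7 had an array apart by Dixon's criterion, and chance passes about 1 in 20. The ratio is the gap to the nearest array divided by the range of the 4. On the IgE arrays it was 0.8704 for Slc37a3, with the first array of clone 18 lowest, and 0.8537 for Lpcat3, with the second array of clone 41 lowest. On the same arrays it was 0.8365 for Kcna6, with the first array of clone 41 lowest. On the control arrays it was 0.8547 for Prss37, with the second untransfected array lowest, and 0.8906 for Tapbpl, with the second IgM array lowest. It was 0.8536 for Mlf2, with the first untransfected array highest, and 0.8352 for Zfyve27, with the second untransfected array highest.

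The IgE clones differed from each other by a limma test at 3 members, with clone 41 minus clone 18 of -5.877 for Gstk1, -2.693 for Scnn1a and -2.281 for Spsb2.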

How the results depend on the processing

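In the main setting 679 genes were called higher and 1116 lower for IgE against control, 406 between the control lines and 71 between the clones. The medians of IgE minus control kept their direction in all 3 stretches under every alternative run. With quantile normalization the distal chromosome 6 median was 0.46 and 0 of its genes were called between the control lines. With normexp the proximal median was 0.49 with 16 genes called higher, the distal 0.37 with 10, and the chromosome 19 median -0.36 with 6 lower. Between control lines normexp called 1 distal and 2 chromosome 19 genes, between clones 0 distal genes, and over all genes 1029 for IgE against control and 42 between clones. Without the filter the medians were 0.12, 0.15 and -0.25. Calls between control lines were then 0 and 0 on chromosome 6 and 229 over all genes, and calls between clones 1 distal and 31 over all, while the medians between clones turned to 0.0234 and 0.0199 in the chromosome 6 stretches. With genes above background on all arrays, calls were 0 proximal between clones, 1 distal between control lines and 0 distal between clones, and 1085, 188 and 15 over all genes for the 3 comparisons.

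In the authors' table the proximal median was 0.52 and the distal 0.35, with 9 distal genes called higher and 6 lower on chromosome 19. Calls between control lines were 0 in both chromosome 6 stretches, where the proximal median turned to -0.0131, and the distal stretch had 0 calls and a median of 0 between clones. Over all genes it called 1117, 162 and 17. With every probe the proximal median was 0.67 with 44 called and 80 above all controls, and the distal median 0.50. The adjusted p alone called 46 proximal, 22 chromosome 19 and 3562 genes in all. With trend and robust priors the distal calls were 1 between control lines and 0 between clones.

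With the replicate block the distal calls were 1 between control lines and 1 between clones, where Spsb2 (adjusted p = 0.0746) and Akap3 (0.0541) were lost. The numbers do not pair the arrays.

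Leaving out 1 array in turn gave medians of 0.54 to 0.63 (proximal), 0.37 to 0.52 (distal) and -0.57 to -0.44 (chromosome 19). Calls between control lines ran from 0 to 3, 0 to 5 and 0 to 1, and over all genes from 248 to 882. Between clones the distal calls ran from 0 to 3 with a median from -0.0740 to 0.0458, and all calls from 30 to 106. The cause of these changes was not tested. Members near or below background have only bounds.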
